A study of Mus musculus with 14 samples.

Results

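Aminoacyl-tRNA synthetases load each amino acid onto its transfer RNA, and 8 of their transcripts were followed here across 14 libraries of mouse embryonic fibroblasts (MEFs). They were chosen by gene, as the transcripts of Aars, Eprs, Kars, Lars, Nars, Sars, Vars and Yars in the deposited tables, and they were 8 of the 1399 transcripts listed. Each gene was represented by 1 transcript, out of 5 annotated for Sars and up to 16 annotated for Nars, so other isoforms of these genes were not analysed here.

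The series asks how cystine held in the lysosome bears on ferroptosis, an iron-dependent cell death, and on a response to cysteine in the nucleus. All cells carried the wild-type genotype, and each group had 2 libraries of polyadenylated RNA. The first 6 libraries covered cysteine starvation, full amino acid starvation and no treatment (NT). The other 8 covered cysteamine, a drug that frees cystine from the lysosome, a short hairpin RNA against the lysosomal cystine exporter CTNS (CTNS knockdown), the same hairpin with a CTNS plasmid (CTNS rescue), and a further untreated group (NT2). The pairing of NT with the starvations and of NT2 with the rest was read from the naming of the samples and the column headers, and is not stated in the labels. No dose, duration or control hairpin is given in the labels, so knockdown is set against untreated cells. Separate cultures are not stated for the 2 libraries of any group, so a p-value here reflects library-to-library spread alone. That spread is estimated over all 14 libraries together and may be technical. Ctns itself, the gene targeted by the hairpin, was not analysed here, so the knockdown was not checked at its target.

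A synthetase recognises one amino acid and the transfer RNAs that match it, spends ATP to join them, and so fixes which amino acid each codon brings into a protein. Several mammalian synthetases, those of Eprs, Kars and Lars among them, are held together with scaffold proteins in a multi-synthetase complex, while those of Aars, Nars, Sars, Vars and Yars work outside it. When amino acids run short, uncharged transfer RNA activates the kinase GCN2, and translation of the transcription factor ATF4 increases. ATF4 is known to switch on genes of amino acid uptake and synthesis together with many cytosolic synthetase genes.

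The elements through which ATF4 and its C/EBP partners act on amino acid response genes are often written TGATGNAA. Promoter windows of 300 bases, 250 before and 50 after the start, were matched to 5 of the 8 genes (Aars, Eprs, Kars, Sars and Yars) in RefSeq sequence on the GRCm38.p6 build. On either strand, these letters were found in 2 of the 5, Aars and Yars. They were present in 3.97% of 32851 windows of this length and in 2.49% of the 1084 listed genes with a window. No other motif was searched. The sequences below are shown because they hold the matches, and the capitals mark the matched letters. In Aars the matches read on the opposite strand, at 112 bases before the start (position -112) and at position 10 after it.
Aars before the start, chr8:111033592-111033841, plus strand: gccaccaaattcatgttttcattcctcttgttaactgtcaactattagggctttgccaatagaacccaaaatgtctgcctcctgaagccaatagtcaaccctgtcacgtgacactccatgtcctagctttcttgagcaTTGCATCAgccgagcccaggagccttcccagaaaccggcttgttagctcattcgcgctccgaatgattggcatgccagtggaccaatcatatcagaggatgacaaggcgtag
Aars around the match at position 10, chr8:111033840-111033869, plus strand: agcgggtcactTTTCATCAgagcgctctga
Yars around the match at position 4, chr4:129189895-129189924, plus strand: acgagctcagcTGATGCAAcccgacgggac
A match is a description of the letters and does not show that a factor binds there. Eprs, Kars and Sars held no match in their windows.

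Counts were low, and this limits every value that follows. The tables summed to 25697 to 51224 listed counts per library in the first experiment and to 64530 to 165747 in the second, with a median of 3 to 16 and of 22 to 61 counts per transcript. These totals cover only the listed transcripts, each of which has at least 1 count in every library, and are not the depth of the libraries. Levels are given as CPM, counts brought to a common library total, with TMM factors (trimmed mean of M values) that correct each total for a few dominant transcripts. A class of 341 transcripts that were high in NT relative to NT2 took very unequal shares of the libraries: 37.6% to 57.5% of counts with cysteine withdrawn, 78.7% to 82.8% with all amino acids withdrawn, 63.8% to 86.8% in NT, 16.3% to 17.4% in cysteamine, 32.0% to 32.7% in CTNS knockdown, 39.4% to 41.8% in CTNS rescue and 9.38% to 9.59% in NT2. Eprs belongs to this class and the other 7 synthetases do not. Libraries of 1 group also differed more in the first experiment, with a within-group chi-square of 4.15 to 7.38 per degree of freedom, than in the second, with 1.56 to 1.99. The p-values and standard errors (SE) come from a fit that pools the spread of all 14 libraries, so those of 1 experiment draw on the other. Of 10 fibroblast markers 7 were measured, and all groups expressed them. Of 4 epithelial markers only Cdh1 was measured, of 4 skeletal muscle markers only Ttn, and of 4 macrophage and 3 endothelial markers none. Cdh1 rested on few counts in every library, so its CPM values are imprecise. Cdh1 and Ttn themselves meet the rule of the class of 341 transcripts, so they are not measures separate from it.

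In all, the 8 synthetases held 349 and 195 counts in the cysteine-starved libraries, 99 and 133 in the libraries starved of all amino acids, and 81 and 38 in NT. In the second experiment they held 602 and 733 counts in cysteamine, 532 and 424 in CTNS knockdown, 419 and 278 in CTNS rescue, and 931 and 712 in NT2. The share of counts outside the class is less affected by the class itself. The 7 synthetases outside it made up 0.845% and 0.667% of those counts with cysteine withdrawn, 0.736% and 0.899% with all amino acids withdrawn, and 0.423% and 0.441% in NT. Both starved groups thus lay above NT without overlap. The class was set by the ratio of NT to NT2, so leaving it out removes transcripts high in NT, Eprs among them. A comparison of this share with NT or NT2 is therefore a description only. The same share was 0.452% and 0.441% in cysteamine, 0.629% and 0.637% in CTNS knockdown, 0.657% and 0.537% in CTNS rescue, and 0.524% and 0.481% in NT2. Knockdown and rescue lay above NT2, and cysteamine below it, by less than the starved groups differed from NT.

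**Figure D1:**
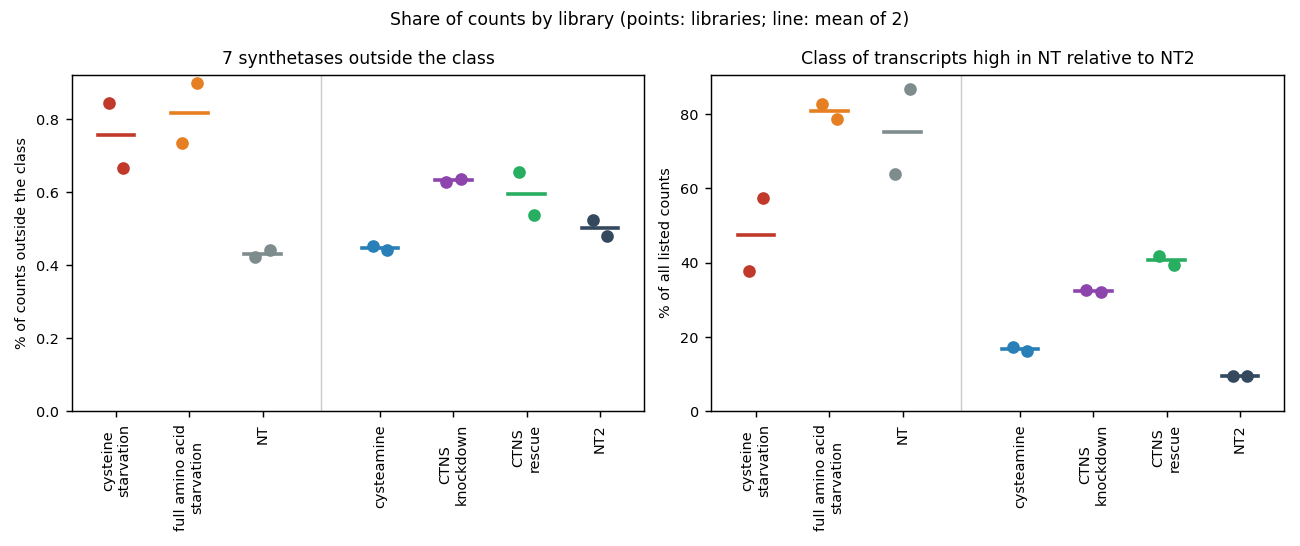
Left, the share of counts outside the NT-high class that the 7 synthetases outside it made up in each library; right, the share of all listed counts taken by that class. Points are libraries and lines are means of 2 libraries; on the left both starved groups (0.667% to 0.899%) sit above NT (0.423% and 0.441%), and on the right the class takes 9.38% to 9.59% of NT2 and up to 86.8% of NT. The class was set by the ratio of NT to NT2, so the left panel is a description only.

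Cysteine starvation asks what the loss of one amino acid does to these transcripts. In cysteine-starved cells 7 of the 8 synthetases had fitted levels above NT, beside 50.8% of all listed transcripts. For 6 of them both starved libraries lay above both NT libraries, beside 24.5% of all transcripts, and for none below, beside 21.1%. The median log2 fold change of the 8 was 0.93, against 0.01 over all transcripts and 0.21 over those outside the class. None passed the threshold of 0.05 after Benjamini-Hochberg adjustment in edgeR's quasi-likelihood test, and neither did any of the 1399 transcripts (0% called). At an unadjusted p under 0.05, edgeR gave 3 of the 8, beside 16.4% of all transcripts, and DESeq2 called 2 of the 8 after adjustment, beside 4.79% of all transcripts. Markers also differed without overlap in this comparison. The 7 fibroblast markers summed to 31011 and 33770 CPM in cysteine starvation, against 24103 and 15381 CPM in NT. Cdh1 had 66.0 and 25.03 CPM in cysteine starvation, against 143 and 294 CPM in NT, and Ttn had 231 and 350.5 CPM in cysteine starvation, against 716 and 686 CPM in NT. For scale, 7 counts of Yars gave 175 CPM in the second cysteine-starved library, and 1 count of Kars gave 98.0 CPM in the second NT library. Cdh1 thus rested on few counts in both groups, and its gap was not tested against counting error. The part of these markers in the synthetase values was not tested.

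Lars, the leucine enzyme of the complex and a reported leucine sensor upstream of mTORC1, had 759 and 325 CPM in cysteine starvation, against 107 and 98.0 CPM in NT. Both starved libraries were above NT, and they differed from each other by more than the lower of them differed from NT. The log2 fold change was 2.44 ± 0.58 (SE, n = 2 each; edgeR adjusted p = 0.0751). It rests on 59 counts in cysteine starvation against 4 in NT, a ratio of 5.59 with a 95% Clopper-Pearson interval of 2.07 to 21.2 that covers counting error only. DESeq2 gave an adjusted p of 0.0368 for Lars and limma 0.0421, the second beside 0.357% of all transcripts called. Without the first cysteine-starved library the log2 fold change was 1.62 (edgeR adjusted p = 0.536).

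Aars, the alanine enzyme, had 1122 and 876 CPM in cysteine starvation, against 251 and 489.8 CPM in NT. All starved values were above all NT values. Its log2 fold change was 1.66 ± 0.38 (edgeR adjusted p = 0.0740), on 103 counts in cysteine starvation against 12 in NT, a ratio of 3.26 (95% interval 1.79 to 6.50). DESeq2 gave an adjusted p of 0.0184. With the second cysteine-starved library left out, edgeR called both Lars (2.84, adjusted p = 0.00636) and Aars (1.82, adjusted p = 0.0269), beside 4.65% of all transcripts. Without the first NT library Aars was at 1.05 (adjusted p = 0.287), and without the first cysteine-starved library its adjusted p was 0.397.

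Vars, the valine enzyme, which binds the elongation factor complex that receives charged transfer RNA, had 875 and 801 CPM in cysteine starvation, against 573 and 196 CPM in NT. The fitted log2 fold change of 0.86 ± 0.40 (edgeR adjusted p = 0.297) was the third with an unadjusted p under 0.05. The NT libraries differed more between themselves than the first of them differed from the starved ones, and without that first library the log2 fold change was 2.10 (adjusted p = 0.131).

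Kars, the lysine enzyme of the complex, which is made in cytosolic and mitochondrial forms from 1 gene, had 314 and 376 CPM in cysteine starvation, against 179 and 98.0 CPM in NT, the last from a single count. Nars, the asparagine enzyme, had 660.2 and 451 CPM in cysteine starvation, against 358 and 98.0 CPM in NT. Sars, the serine enzyme, had 495 and 325 CPM in cysteine starvation, against 215 and 294 CPM in NT. For each of the 3 the groups did not overlap, with log2 fold changes of 1.11 ± 0.57, 0.998 ± 0.49 and 0.84 ± 0.54, and edgeR adjusted p-values of 0.354, 0.322 and 0.444. Without the first NT library Nars was at 2.53 (adjusted p = 0.184) and Kars at 1.78.

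The other two overlapped NT. Eprs, whose protein joins the glutamate and proline enzymes in a single chain and anchors the complex, had 1304 and 1552 CPM in cysteine starvation, against 1039 and 2253 CPM in NT. Yars, the tyrosine enzyme, had 231 and 175 CPM in cysteine starvation, against 179 and 196 CPM in NT. Their log2 fold changes were -0.03 ± 0.37 for Eprs and 0.17 ± 0.47 for Yars.

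Starvation for all amino acids left 99 and 133 counts for the 8 transcripts. Fitted levels of 6 of the 8 were above NT, beside 57.5% of all transcripts. Both starved libraries lay above NT for 4 (Aars, Lars, Nars and Sars), beside 16.3% of all transcripts, and below it for Yars, beside 14.6%. No synthetase and no other transcript passed the adjusted threshold (0% called). At an unadjusted p under 0.05 edgeR gave 4 of the 8, beside 7.79% of all transcripts, and DESeq2 called none. The median log2 fold change of the 8 was 1.12, against 0.05 over all transcripts. This comparison uses the same 2 NT libraries as the one above, so the 2 are not separate evidence.

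Aars had 681 and 1099 CPM in full amino acid starvation, against 251 and 489.8 CPM in NT, a log2 fold change of 1.53 ± 0.43 (edgeR adjusted p = 0.346). Lars had 340.3 and 308 CPM in full amino acid starvation, against 107 and 98.0 CPM in NT, from 12 counts in the starved libraries and 4 in NT (1.60 ± 0.75). Nars had 544 and 747 CPM in full amino acid starvation, against 358 and 98.0 CPM in NT (1.22 ± 0.54), and was at 2.75 without the first NT library. These 3 were above NT in both libraries. Ttn was above NT as well, at 1633 and 835 CPM in full amino acid starvation, against 716 and 686 CPM in NT, while the fibroblast markers and Cdh1 overlapped NT. The part of this in the synthetase values was not tested.

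Sars was also above NT in both, at 408 and 659 CPM in full amino acid starvation, against 215 and 294 CPM in NT (log2 fold change 1.23 ± 0.59). Eprs had 4083 and 2066 CPM in full amino acid starvation, against 1039 and 2253 CPM in NT, and the groups overlapped (1.03 ± 0.37, edgeR adjusted p = 0.442). Vars had 408 and 659 CPM in full amino acid starvation, against 573 and 196 CPM in NT, and also overlapped. Its log2 fold change of 0.26 ± 0.50 was 1.51 when the first NT library was left out. Kars and Yars rested on 5 and 6 counts in full amino acid starvation, against 6 and 7 in NT. Their log2 fold changes were -0.23 ± 0.82 and -0.20 ± 0.59, too imprecise to show a difference at this depth.

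Between the 2 starvations, Eprs was the 1 synthetase that passed the test. It was lower in cysteine starvation, at 1304 and 1552 CPM, than in full amino acid starvation, at 4083 and 2066 CPM, without overlap. The log2 fold change was -1.07 ± 0.32 (edgeR adjusted p = 0.0371), on 141 counts in cysteine starvation against 107 in full amino acid starvation. Among all transcripts 12.4% were called lower and 2.57% higher in this comparison, 15% in all, and 162 of the 174 called lower belong to the NT-high class that also holds Eprs. The class took 37.6% and 57.5% of counts in the cysteine-starved libraries, against 82.8% and 78.7% in those starved of all amino acids, and its part in the Eprs difference was not tested. All 3 marker measures also stood apart, but Cdh1 and Ttn belong to this class and are not separate from it. The fibroblast markers summed to 31011 and 33770 CPM in cysteine starvation, against 15245 and 24752 CPM in full amino acid starvation. Cdh1 had 66.0 and 25.03 CPM in cysteine starvation, against 613 and 176 CPM in full amino acid starvation, and Ttn had 231 and 350.5 CPM in cysteine starvation, against 1633 and 835 CPM in full amino acid starvation. The Cdh1 values again rest on few counts. The part of these markers was not tested either. The call was lost with the libraries of the first experiment alone (-0.99, adjusted p = 0.379), in 10 of the 14 fits that left out a library, and when counts were scaled to the total of the listed transcripts (-0.03, adjusted p = 0.945). Without the first library of full amino acid starvation the log2 fold change was -0.55 (adjusted p = 0.432).

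Fitted levels of 5 of the 8 were higher in cysteine starvation, beside 52.4% of all transcripts, and 2 of the 8 had an unadjusted p under 0.05, beside 28.8%. Both libraries were above for 2, beside 25.7%, and below for Eprs, beside 28.1%. Of the remaining 7, Kars had 314 and 376 CPM in cysteine starvation, against 136 and 132 CPM in full amino acid starvation (log2 fold change 1.34 ± 0.60, edgeR adjusted p = 0.153), and Vars had 875 and 801 CPM in cysteine starvation, against 408 and 659 CPM in full amino acid starvation (0.59 ± 0.38). Neither of these overlapped. Lars (0.84 ± 0.44), Aars (0.13 ± 0.29), Yars (0.37 ± 0.49), Nars (-0.22 ± 0.39) and Sars (-0.39 ± 0.43) overlapped between the starvations.

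**Figure D2:**
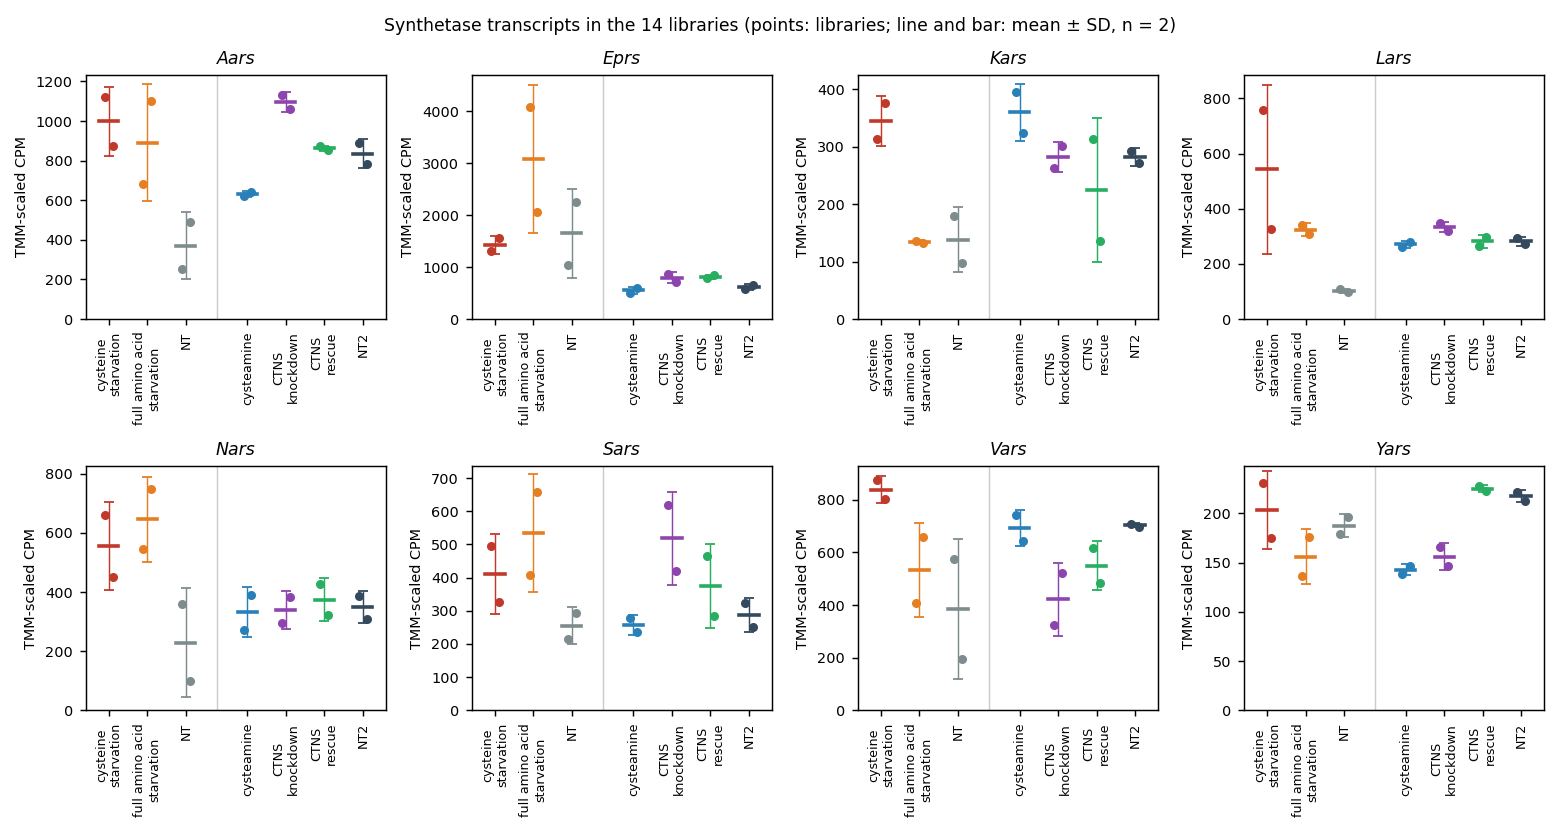
TMM-scaled CPM (vertical axis, linear, from 0, with its own range in each panel) of the 8 synthetase transcripts in each library, with the mean and SD of 2 libraries per group and the first experiment left of the grey line. NT is the lowest group for Aars, Lars, Nars, Sars and Vars, and the first experiment spreads more than the second, as in Lars at 759 and 325 CPM in cysteine starvation.

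Knockdown of CTNS is where 2 synthetases passed the test against their untreated control, in opposite directions. Sars rose and Vars fell, while 6 did not pass the test. Scaled to the total of the listed counts, Sars did not pass (0.67, adjusted p = 0.0870). Aars also passed, beside Sars and Vars, in 2 other settings, with a mean count of at least 20 (0.49, adjusted p = 0.0476; 39.6% of all transcripts called) and without the NT-high class (0.51, adjusted p = 0.00542; 35% called). The class was set by the ratio of NT to NT2, so the second of these settings is a description only. In this comparison 17.6% of all transcripts were called higher and 13.2% lower, 30.8% in all, so 2 of 8 is close to the background. Fitted levels were above NT2 for 4 of the 8, beside 55% of all transcripts, and 2 had an unadjusted p under 0.05, beside 42%. For 4 of the 8 both knockdown libraries lay above both NT2 libraries, beside 40.2% of all transcripts, and for 2 below, beside 31.6%.

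Sars had 618 and 420.1 CPM in CTNS knockdown, against 325 and 252 CPM in NT2. Both knockdown libraries were above both NT2 libraries. The log2 fold change was 0.85 ± 0.25 (edgeR adjusted p = 0.0162), on 128 counts in CTNS knockdown against 134 in the larger NT2 libraries, a scaled ratio of 1.81 (95% interval 1.41 to 2.32). Without the first knockdown library it was 0.53 (adjusted p = 0.259), and without the second NT2 library 0.69 (adjusted p = 0.123).

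Vars had 324 and 521 CPM in CTNS knockdown, against 709 and 697 CPM in NT2. The NT2 libraries nearly coincided and both knockdown libraries were below them. The log2 fold change was -0.75 ± 0.23 (edgeR adjusted p = 0.0218), a scaled ratio of 0.587 (95% interval 0.464 to 0.737) on 100 counts in CTNS knockdown against 323 in NT2. Without the first knockdown library it was -0.43 (adjusted p = 0.304), and the call was also lost without either NT2 library, at -0.74 (adjusted p = 0.119) and -0.76 (adjusted p = 0.0952). DESeq2 called Sars (adjusted p = 0.0333; 27.6% of all transcripts called) but not Vars, limma called neither, and neither passed with NT and NT2 pooled as the control.

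Among the others, Aars had 1129.9 and 1059 CPM in CTNS knockdown, against 887 and 784 CPM in NT2 (log2 fold change 0.39 ± 0.19, edgeR adjusted p = 0.131). Yars had 166 and 146 CPM in CTNS knockdown, against 222 and 213 CPM in NT2 (-0.47 ± 0.26, edgeR adjusted p = 0.188). Eprs had 866 and 721 CPM in CTNS knockdown, against 570.1 and 649 CPM in NT2 (0.39 ± 0.28). Aars, Eprs and Yars did not overlap NT2, and neither did Lars, at 346 and 319.6 CPM in CTNS knockdown, against 293 and 271 CPM in NT2. Kars had 264 and 301 CPM in CTNS knockdown, against 293 and 271 CPM in NT2, and Nars had 294 and 384 CPM in CTNS knockdown, against 388 and 309.8 CPM in NT2. Both overlapped NT2, with log2 fold changes of -0.01 ± 0.26 and -0.06 ± 0.26.

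Other measures also moved with the knockdown. The 7 fibroblast markers summed to 11005 and 10941 CPM in CTNS knockdown, against 37129 and 34147 CPM in NT2. Cdh1 had 90.4 and 54.8 CPM in CTNS knockdown, against 3.96 and 24.2 CPM in NT2, and Ttn had 459 and 411 CPM in CTNS knockdown, against 99.0 and 194 CPM in NT2. The Cdh1 values in NT2 rest on few counts, and Cdh1 and Ttn belong to the NT-high class. The part of these markers in the Sars and Vars results was not tested. In bulk RNA, fewer cells of a type and less RNA per cell cannot be told apart.

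Rescue with the CTNS plasmid called no synthetase against the knockdown, where 0.643% of all transcripts were called. No member had an unadjusted p under 0.05 in edgeR, beside 11% of all transcripts, and DESeq2 called none. Fitted levels were above the knockdown for 4 of the 8, beside 50.9%, and both libraries lay above for 1, beside 24.2%, and below for 2, beside 23.7%. Sars had 464 and 285 CPM in CTNS rescue, against 618 and 420.1 CPM in CTNS knockdown, and overlapped it (log2 fold change -0.45 ± 0.27, edgeR adjusted p = 0.529). Vars had 616 and 483 CPM in CTNS rescue, against 324 and 521 CPM in CTNS knockdown, and also overlapped (0.41 ± 0.26, edgeR adjusted p = 0.537). The fitted signs for both are opposite to those of the knockdown against NT2, but the same knockdown libraries enter both comparisons. Yars was above the knockdown in both libraries, at 227 and 223 CPM in CTNS rescue, against 166 and 146 CPM in CTNS knockdown (0.52 ± 0.29). Aars was below it, at 872 and 855 CPM in CTNS rescue, against 1129.9 and 1059 CPM in CTNS knockdown (-0.34 ± 0.20). Lars was below it too, at 265 and 297 CPM in CTNS rescue, against 346 and 319.6 CPM in CTNS knockdown (-0.25 ± 0.28).

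Against NT2, rescue also called none of the 8, with 18.7% of all transcripts called higher and 12.9% lower, 31.5% in all. No member had an unadjusted p under 0.05 in edgeR, beside 40.7% of all transcripts, and DESeq2 called none. Fitted levels were above NT2 for 5 of the 8, beside 49.7%, and both libraries lay above for 2, beside 34%, and below for 1, beside 34.4%. The log2 fold changes were between -0.34 ± 0.23 for Vars and 0.42 ± 0.29 for Eprs. Vars had 616 and 483 CPM in CTNS rescue, against 709 and 697 CPM in NT2, and Eprs had 787 and 842 CPM in CTNS rescue, against 570.1 and 649 CPM in NT2, both without overlap. Kars was uneven in rescue, at 313 and 136 CPM from 33 and 11 counts, against 293 and 271 CPM in NT2. With the first rescue library left out, Kars gave a log2 fold change of -1.07 (adjusted p = 0.0484), beside 19.4% of all transcripts. The fibroblast markers summed to 19042 and 18629 CPM in CTNS rescue, between NT2 and the knockdown, and Ttn had 569 and 743 CPM in CTNS rescue, above both. Their part was not tested.

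Cysteamine, which depletes lysosomal cystine, called no synthetase against NT2, where 5.5% of all transcripts were called higher and 5% lower, 10.5% in all. DESeq2 called none either. Fitted levels were above NT2 for 1 of the 8, beside 59.3% of all transcripts, and below it for 7. The median log2 fold change of the 8 was -0.10, against 0.13 over all transcripts. Yars had 139 and 147 CPM in cysteamine, against 222 and 213 CPM in NT2, a log2 fold change of -0.60 ± 0.25 (edgeR adjusted p = 0.129). Aars had 619 and 640.5 CPM in cysteamine, against 887 and 784 CPM in NT2, a log2 fold change of -0.41 ± 0.19 (edgeR adjusted p = 0.173). These were the 2 members with an unadjusted p under 0.05, beside 27.7% of all transcripts. They were also the 2 whose libraries were both below NT2, beside 26.2%.

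Aars passed under 2 alternatives that called more transcripts in all. With the 8 libraries of the second experiment alone, edgeR gave -0.45 for Aars (adjusted p = 0.0160), beside 26.8% of all transcripts. With the NT-high class left out it called both Aars (-0.42, adjusted p = 0.0250) and Yars (-0.61, adjusted p = 0.0455), beside 30.9%. Both shares are above those of the synthetases, so the counts do not set them apart. The class was set by the ratio of NT to NT2, so the second of these alternatives is a description only. The fibroblast markers summed to 21375 and 22163 CPM in cysteamine, below NT2, and Ttn was at 245.5 and 218 CPM, above it; their part was not tested. Kars was the 1 member with both libraries above NT2, beside 39.7% of all transcripts, at 395 and 325 CPM in cysteamine, against 293 and 271 CPM in NT2 (0.34 ± 0.23, edgeR adjusted p = 0.339). Eprs, Lars, Nars, Sars and Vars overlapped NT2, with log2 fold changes between -0.18 and -0.02.

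**Figure D3:**
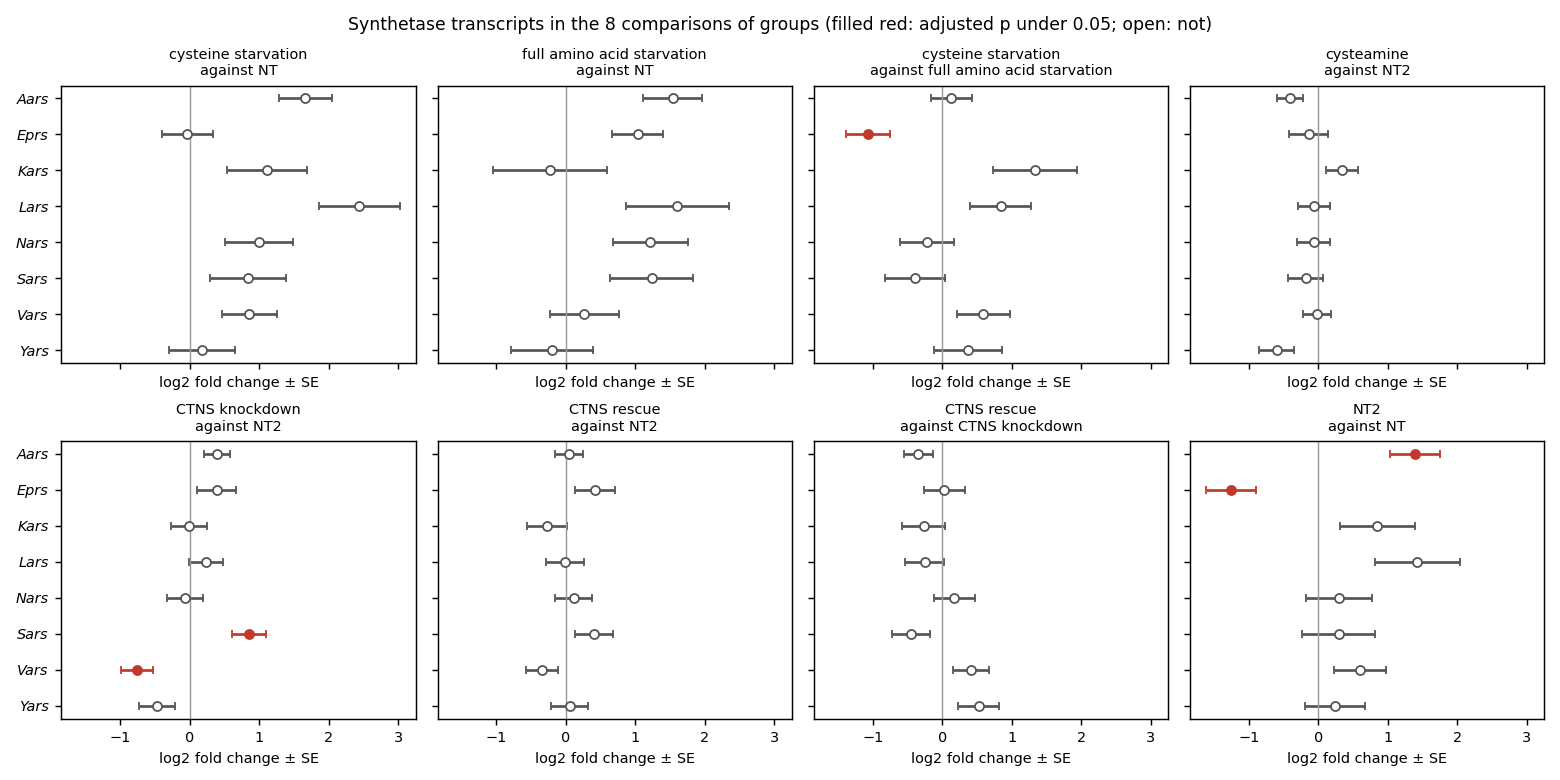
Log2 fold change ± SE (horizontal axis) of the 8 synthetase transcripts in the 8 comparisons of groups, from edgeR's fit of all 14 libraries. Filled red points passed an adjusted p of 0.05 and open points did not; the filled points are Eprs between the starvations, Sars and Vars in CTNS knockdown against NT2, and Aars and Eprs in NT2 against NT.

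NT2 and NT carry the same label of no treatment, and what separated their experiments is not stated. Here 2 synthetases passed the test, beside 24.4% of all transcripts (8.36% higher and 16% lower in NT2). Aars was higher in NT2, at 887 and 784 CPM, than in NT, at 251 and 489.8 CPM (log2 fold change 1.39 ± 0.36, edgeR adjusted p = 0.0105). Eprs was lower in NT2, at 570.1 and 649 CPM, than in NT, at 1039 and 2253 CPM (-1.25 ± 0.36, edgeR adjusted p = 0.0187). The NT-high class that holds Eprs was set by the ratio of these same libraries, so this call is a description only. The markers differed as well, with the fibroblast markers at 37129 and 34147 CPM in NT2 against 24103 and 15381 CPM in NT, and Cdh1 at 3.96 and 24.2 CPM in NT2 against 143 and 294 CPM in NT, and their part was not tested. Cdh1 rested on few counts in both groups and belongs to the class set by these libraries, so its gap is a description only. Scaled to the total of the listed counts, Eprs was at 0.10 in place of -1.25, and the median over all transcripts was 1.42 in place of 0.15. Without the first NT library, Aars was at 0.77 (adjusted p = 0.410), and without the second, Eprs was at -0.77 (adjusted p = 0.210). The other log2 fold changes were between 0.24 for Yars and 1.42 ± 0.61 for Lars, none past the threshold in edgeR, while limma also called Lars (1.45, adjusted p = 0.0147) beside 31.2% of all transcripts. Fitted levels were higher in NT2 for 7 of the 8, beside 55.9% of all transcripts, and 3 had an unadjusted p under 0.05, beside 36.4%. Both NT2 libraries were above NT for 5, beside 37.1%, and below for Eprs, beside 28.7%.

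The effects in the 2 experiments could be compared by the difference of their fold changes. The effect of CTNS knockdown against NT2 minus that of cysteine starvation against NT was below 0 for Lars (-2.20 ± 0.65, edgeR adjusted p = 0.0254) and Vars (-1.61 ± 0.46, edgeR adjusted p = 0.0196), where 7.15% of all transcripts were called lower and 12% higher. For Lars the effects behind it were 0.24 ± 0.24 in knockdown and 2.44 ± 0.58 in cysteine starvation, and for Vars they were -0.75 ± 0.23 and 0.86 ± 0.40. In all 19.2% were called, and 3 of the 8 had an unadjusted p under 0.05, beside 33.1%, with the difference above 0 for 2 of the 8, beside 49.5%. Aars did not pass (-1.28 ± 0.43, adjusted p = 0.0501), and Sars gave 0.01 ± 0.66. The effect of cysteamine minus that of cysteine starvation was below 0 for all 8, and passed for Aars (-2.07 ± 0.42, edgeR adjusted p = 0.0206) and Lars (-2.50 ± 0.64, edgeR adjusted p = 0.0359), where 2.36% of all transcripts were called lower and 4.43% higher, 6.79% in all. In edgeR 2 of the 8 had an unadjusted p under 0.05, beside 22.1%, and 53.4% of all transcripts were above 0. Both differences share the cysteine-starved and NT libraries, and the experiments differ in total count and in the share of the NT-high class, which cannot be told apart from the treatments.

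Across the 7 groups the synthetases were not ordered alike. Aars was highest in CTNS knockdown (1095 ± 49.8 CPM, SD, n = 2) and lowest in NT (370.3 ± 169 CPM). Between neighbours in its order, cysteamine stood apart from NT2 above it and from NT below it, and the other neighbours overlapped. Eprs was highest in full amino acid starvation (3075 ± 1426 CPM) and lowest in cysteamine (552 ± 62.9 CPM), and a gap separated the 3 groups of the first experiment from the 4 of the second. Lars was highest in cysteine starvation (542 ± 307 CPM) and lowest in NT (103 ± 6.70 CPM), which lay apart from cysteamine, the next group up. Nars and Sars were highest in full amino acid starvation (646 ± 144 and 534 ± 178 CPM) and lowest in NT (228 ± 184 and 254 ± 55.9 CPM), and no neighbours of Sars were separate.

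Vars was highest in cysteine starvation (838 ± 52.1 CPM), apart from NT2 at 703 ± 8.22 CPM, and lowest in NT (384 ± 267 CPM). Kars was highest in cysteamine (359.8 ± 49.7 CPM) and lowest in full amino acid starvation (134 ± 2.98 CPM). Yars was highest in CTNS rescue (225 ± 3.20 CPM) and lowest in cysteamine (143 ± 5.67 CPM). Over the 8 transcripts, 12 of 48 pairs of neighbouring groups did not overlap. Orders that cross the 2 experiments also carry the difference between NT2 and NT.

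Levels per kilobase of transcript allow a rough comparison of different genes. The length used is that of the listed transcript, and the counter and annotation behind the counts are not known. By this measure Eprs was the highest of the 8 in cysteine starvation (291 CPM per kilobase), full amino acid starvation (627), NT (335) and CTNS rescue (166). Aars led in CTNS knockdown (190.4 CPM per kilobase), and Vars in cysteamine (168) and NT2 (169.9). Yars was the lowest in cysteine starvation (69.8 CPM per kilobase), full amino acid starvation (53.6), cysteamine (49.1) and CTNS knockdown (53.6), and Lars in CTNS rescue (70.7), NT2 (70.9) and NT (25.8). The value of Yars in full amino acid starvation rests on 6 counts and that of Lars in NT on 4, so these ranks are imprecise.

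How the members moved together was described over the 14 libraries by Pearson's r of log2 CPM, each centred on the mean of its experiment. Aars, Lars, Nars and Sars formed the closest set, with r between 0.45 and 0.81. Vars went with Nars (0.73) and Kars (0.70) but not with Sars (-0.05). Eprs ran against Vars (-0.57) and Kars (-0.56), and Yars had an r between -0.22 and 0.17 with every other member. Against the mean of the other 7, r was 0.88 for Lars, 0.76 for Aars, 0.74 for Nars, 0.55 for Sars, 0.44 for Vars, 0.31 for Kars, 0.02 for Yars and -0.10 for Eprs. These correlations share libraries, depth and scaling, and the low counts of the first experiment weigh on them.

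**Figure D4:**
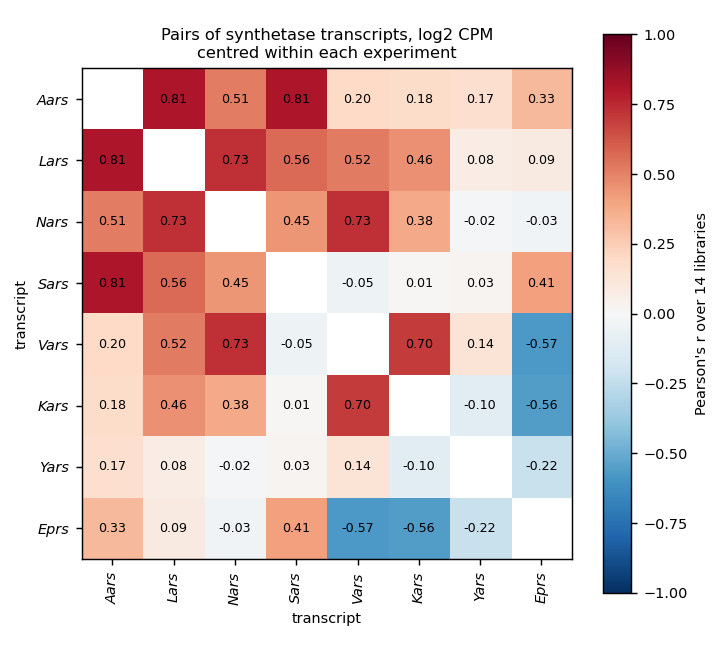
Pearson's r between the log2 CPM of each pair of synthetase transcripts over the 14 libraries, centred within each experiment (colour scale from -1 to 1). Aars, Lars, Nars and Sars form a block of positive values from 0.45 to 0.81, and Eprs is negative with Vars (-0.57), Kars (-0.56) and Yars (-0.22).

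Outside the family, the 6 transcripts with a mean count of at least 20 whose pattern over the 14 libraries was most like the mean of the members, among 890 compared, were those of Sf1 (r = 0.87), Psmb1 (0.86), Hnrnpul2 (0.86), Sox4 (0.85), Ccn1 (0.84) and Tcf20 (0.84). Sf1 is a splicing factor, Psmb1 a proteasome subunit, Sox4 a transcription factor and Ccn1 a secreted matrix protein.

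The genes that surround the synthetases in translation and in the amino acid response were counted from lists. A list of 33 names held other synthetase genes, the cysteine enzyme Cars included, with Mars also under the name Mars1. It also held Gatb, Gatc and Qrsl1, which are not synthetases. Of these names, and of 7 genes of the complex's scaffold and of transfer RNA handling, none was measured. Of 34 amino acid response genes 10 were measured. In cysteine starvation all 10 had fitted levels above NT, beside 50.8% of all transcripts, and none passed the adjusted threshold. Their median log2 fold change was 1.36, against 0.01 over all transcripts. None of the 10 belongs to the NT-high class, and the median over the transcripts outside it was 0.21. Untreated NT2 was also above NT for 8 of the 10, beside 55.9% of all transcripts, and none was called. Their median there was 0.54, against 0.15 over all transcripts and 0.41 over those outside the class. The part of low NT levels in the starvation values was not tested. The smallest p-values were those of Vegfa, the angiogenic growth factor (2.02 ± 0.47, edgeR adjusted p = 0.0740), Slc3a2, the partner chain of the cystine transporter (2.87 ± 0.67, adjusted p = 0.0740), Mthfd2, of mitochondrial folate metabolism (2.59 ± 0.63, adjusted p = 0.0805), and Shmt2, which makes glycine from serine in mitochondria (1.74 ± 0.50, adjusted p = 0.101). Slc3a2 and Mthfd2 each had 3 counts in NT.

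In full amino acid starvation 9 of the 10 were above NT, beside 57.5% of all transcripts, and none was called. Their median was 0.81, against 0.05 over all transcripts. Between cysteine starvation and full amino acid starvation Vegfa was higher (1.80 ± 0.45, edgeR adjusted p = 0.0148), the 1 call among the 10, where 2.57% of all transcripts were called higher. In CTNS knockdown none was called higher than NT2 and 2 were called lower, Aldh18a1, of proline synthesis (-1.04 ± 0.29, edgeR adjusted p = 0.0138), and Slc38a2, an amino acid transporter (-0.73 ± 0.24, edgeR adjusted p = 0.0273), with a median of -0.14. Over all transcripts 13.2% were called lower in the knockdown, so 2 of 10 is near the background. In cysteamine 1 was called lower than NT2, Aldh18a1 (-1.10 ± 0.26, edgeR adjusted p = 0.0150), with a median of 0.16, beside 5% of all transcripts. In CTNS rescue Vegfa was called higher (1.30 ± 0.26, edgeR adjusted p = 0.00130) and Atf4, the transcription factor of the response, lower (-0.91 ± 0.24, edgeR adjusted p = 0.00908) than in NT2, beside 18.7% of all transcripts higher and 12.9% lower.

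All 6 elongation factor genes on the list were measured. None was called in either starvation against NT, in cysteamine or in CTNS knockdown against NT2. In CTNS rescue 2 were lower than in NT2, Eef1a1 (-0.85 ± 0.31, edgeR adjusted p = 0.0446) and Eef1b2 (-0.83 ± 0.23, edgeR adjusted p = 0.0118), beside 12.9% of all transcripts. In NT2 2 were higher than in NT, Eef1a1 (1.06 ± 0.33, edgeR adjusted p = 0.0255) and Eef1g (1.16 ± 0.31, edgeR adjusted p = 0.0116), beside 8.36% of all transcripts.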

How the data were processed

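Polyadenylated RNA of wild-type MEFs was sequenced from gel-selected fragments of 50 to 100 nucleotides, per the labels' protocols. bcl2fastq 2.20.0.422, cutadapt 2.8, Bowtie 1.2.3, STAR 2.7.10a and the GRCm39 build are named, per the submitters' processing notes; for the counter, annotation and strand setting, the sources used here give no information. The deposited tables hold counts, whole numbers per Ensembl transcript, although they are named as CPM. All 14 list the same 1399 transcripts with at least 1 count each, so transcripts missing from a library are outside them. Symbols came from GENCODE mouse release 21, on GRCm38, for 1385 transcripts and for none of the other 14. Overlapping or near-identical transcripts could share reads.

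The 8 synthetases, the other gene lists and the NT-high class were chosen with earlier results of these data known. The class holds transcripts whose ratio of NT to NT2, taken against the 3 most abundant transcripts, was above 2 times the median ratio. Every synthetase is named in every comparison, and of each list up to 4 genes with the smallest p. edgeR 4.0.16 in R 4.3.3 fitted 7 group means to all 14 libraries (7 residual degrees of freedom) after TMM scaling. Its two-sided quasi-likelihood test gave p-values, with Benjamini-Hochberg adjustment over all 1399 at a threshold of 0.05. Where no other tool is given, an adjusted p comes from this test. An SE is the size of the log2 fold change divided by the square root of this test's F statistic. Correlations used log2 CPM with a prior count of 2. DESeq2 1.42.0, limma 3.58.1 on log2(CPM + 1), other scalings, other sets of libraries or transcripts and a replicate block were alternatives. Intervals and ratios of counts cover counting error only, since no molecular identifiers are named. There were 8 comparisons and 2 differences of effects.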

Additional observations from a re-analysis of the deposited data

Results flagged for a closer look

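For 4 results the effects of treatments in the 2 experiments differed by a test of the difference itself, a contrast in edgeR's quasi-likelihood fit. For Lars, the effect of CTNS knockdown against NT2 minus that of cysteine starvation against NT was -2.20 ± 0.65 (adjusted p = 0.0254). For Vars the same difference was -1.61 ± 0.46 (adjusted p = 0.0196). For Aars, the effect of cysteamine against NT2 minus that of cysteine starvation against NT was -2.07 ± 0.42 (adjusted p = 0.0206), and for Lars it was -2.50 ± 0.64 (adjusted p = 0.0359). Each difference thus called 2 of the 8 synthetases. Over all transcripts 19.2% were called in the knockdown difference, which is near that share, and 6.79% in the cysteamine difference. DESeq2 did not call Lars in the knockdown difference (adjusted p = 0.0691). All 4 results rest on the same cysteine-starved and NT libraries, in which Lars had 59 and 4 counts. Calls depended on single libraries: without the first cysteine-starved library Lars was at -1.38 (adjusted p = 0.242) for knockdown and -1.68 (adjusted p = 0.239) for cysteamine, without the first NT library Aars was at -1.46 (adjusted p = 0.111), and without the second NT library Vars was at -1.31 (adjusted p = 0.0626). The experiment cannot be told apart from the treatments in these differences.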

How the results depend on the processing

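Each of 80 member results (8 transcripts in 10 contrasts) was recomputed under 9 alternatives and 14 fits without 1 library, 1710 values in all where the alternative gave one. In 85 of them the sign changed, in 31 of the 80 results. In 81 of the 85 the reported log2 fold change was within 1 SE of 0, and none of the 85 had an adjusted p under 0.05. The exceptions beyond 1 SE are among those below, which give the log2 fold change under each alternative. The cause of a change was not tested.

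Scaled to the total of the listed counts, 2 synthetases passed in cysteine starvation against NT, 4 in cysteine against full amino acid starvation, 1 in CTNS knockdown and 7 in NT2 against NT, beside 2.22%, 39.2%, 26.7% and 70.8% of all transcripts. The median over all transcripts moved to 0.70 in cysteine starvation against NT, 1.09 between the starvations and 1.42 in NT2 against NT, beside 0.01, 0.05 and 0.15 with TMM scaling. Signs changed for Eprs in cysteine starvation (0.72), Vars in full amino acid starvation (-0.11), Nars (0.84) and Sars (0.66) between the starvations, Eprs in rescue against knockdown (-0.12), Aars (-0.28), Nars (-0.22) and Yars (-0.28) in rescue against NT2, and Eprs in NT2 against NT (0.10). Median-of-ratios scaling changed no count of calls, and gave Vars in cysteamine 0.016, Kars in knockdown 0.045 and Lars in rescue against NT2 0.032.

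DESeq2 called 2 in cysteine starvation, 1 in knockdown and 1 in the difference between knockdown and cysteine starvation, beside 4.79%, 27.6% and 19.7% of all transcripts. It gave Vars in cysteamine 0.018, Kars in knockdown 0.049, Lars in rescue against NT2 0.036 and Eprs in the difference between cysteamine and cysteine starvation 0.049. limma called 1 in cysteine starvation, 0 between the starvations, 0 in knockdown and 3 in NT2 against NT, beside 0.357%, 17.7%, 9.36% and 31.2% of all transcripts, with Kars at 0.016 in full amino acid starvation and 0.00032 in knockdown. A mean count of at least 20, which left Yars out, called 3 in knockdown (Aars with Sars and Vars), beside 39.6% of the transcripts kept, and gave Aars between the starvations -0.11, Kars in knockdown 0.094, Nars in knockdown 0.040 and Lars in rescue against NT2 0.10.

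With the libraries of 1 experiment alone, 0 passed between the starvations and 1 in cysteamine, beside 6.22% and 26.8% of all transcripts, and Aars and Yars in rescue against NT2 were at -0.048 and -0.041. With NT and NT2 together as the control, 0 passed in knockdown, beside 3.22%. Signs changed for Eprs (0.47) and Yars (-0.028) in cysteine starvation, Vars in full amino acid starvation (-0.13), Lars (0.16), Nars (0.013) and Vars (0.21) in cysteamine, Eprs (-0.38), Kars (0.17) and Nars (0.033) in knockdown, and Eprs (-0.34) and Lars (0.21) in rescue.

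Without the NT-high class, and so without Eprs, 0 passed between the starvations, 2 in cysteamine, 3 in knockdown, 0 in NT2 against NT and 0 in the difference between knockdown and cysteine starvation, beside 1.7%, 30.9%, 35%, 0.378% and 4.82% of the 1058 transcripts kept. Signs changed for Yars in cysteine starvation (-0.050), Aars between the starvations (-0.18), Kars (0.11) and Nars (0.051) in knockdown, Lars in rescue against NT2 (0.18), and Nars (-0.14), Sars (-0.13) and Yars (-0.18) in NT2 against NT. The class was set by the ratio of NT to NT2, so comparisons with either group under this setting are a description only.

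The replicate block, with the replicate number as a term, changed no call of a member; Sars in knockdown had a log2 fold change of 0.85 (edgeR adjusted p = 0.00595) and Sars in the difference between knockdown and cysteine starvation was at -0.041. Deviations of same-numbered libraries correlated at -0.19 to 0.30 in the first experiment, and at 0.13 to 0.29 in all 6 pairs of groups in the second. The 6 values reuse the same groups and are not independent, and the labels give the numbers no meaning. Whether same-numbered libraries share more than a number was not tested.

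Leaving out each library in turn changed which members passed, except in full amino acid starvation against NT, cysteamine and rescue against knockdown, where none passed. The share of all transcripts called also differed between these fits, so such changes do not set the synthetases apart. A group left with 1 library is assumed to vary like the others. In cysteine starvation against NT, Aars ranged from 1.05 to 2.01, Lars from 1.62 to 2.84, Nars from 0.65 to 2.53 and Vars from 0.56 to 2.10, and Nars in full amino acid starvation from 0.89 to 2.75. Where a sign changed, the log2 fold changes ranged as follows. In cysteine starvation Eprs ranged from -0.67 to 0.45 and Yars from -0.069 to 0.33. In full amino acid starvation Kars ranged from -0.42 to 0.44 and Vars from -0.19 to 1.51. Between the starvations Aars ranged from -0.12 to 0.58, Nars from -0.56 to 0.071 and Sars from -0.78 to 0.056. In cysteamine Lars ranged from -0.11 to 0.0011, Nars from -0.36 to 0.16, Sars from -0.34 to 0.022 and Vars from -0.12 to 0.077. In knockdown Kars ranged from -0.10 to 0.092 and Nars from -0.26 to 0.13. In rescue against knockdown Eprs ranged from -0.091 to 0.17, Kars from -1.03 to 0.15 and Nars from -0.051 to 0.37. In rescue against NT2 Aars ranged from -0.038 to 0.14, Kars from -1.07 to 0.15, Lars from -0.091 to 0.051, Nars from -0.15 to 0.29 and Sars from -0.048 to 0.68. In NT2 against NT Nars ranged from -0.029 to 1.83 and Sars from -0.017 to 0.45. In the difference between knockdown and cysteine starvation Eprs ranged from -0.055 to 1.06 and Sars from -0.31 to 0.39, and in that between cysteamine and cysteine starvation Eprs ranged from -0.58 to 0.54.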
